A study of Arabidopsis thaliana with 16 samples.

Results

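This account covers 10 Arabidopsis genes of calcium signalling: the calcium-dependent protein kinase genes CPK4 (AT4G09570), CPK5 (AT4G35310), CPK6 (AT2G17290), CPK10 (AT1G18890, also called CDPK1), CPK11 (AT1G35670), CPK28 (AT5G66210), CPK30 (AT1G74740) and CPK32 (AT3G57530), and the calmodulin-like genes CML37 (AT5G42380) and CML38 (AT1G76650). They were followed through the peak lists of a chromatin immunoprecipitation sequencing (ChIP-seq) study of WRKY proteins, a family of transcription factors whose DNA target is the W-box. A peak belonged to a gene when the deposited lists gave that gene as its nearest promoter. Peaks were assigned to 6 of the 10 genes, among 3609 genes with a peak in at least 1 list, and these 6 genes held 30 of 14333 peaks. The genes were chosen by these same calls and by the ChIP scores of the peaks, beside what is known of their roles, so the counts and levels are a description and carry no test. CPK4, CPK6, CPK11 and CML38 had no peak in any list.

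The immunoprecipitations used whole seedlings, 12 days old, and an immune serum raised against all WRKY proteins. The groups were the Col-0 wrky18 wrky40 wrky33 triple mutant, a line mutated in 3 WRKY genes whose alleles are not described here, after 2 h of 1 µM flg22 and at 0 h without it, and Col-0 wild type (WT) after 2 h of 1 µM flg22 and at 0 h without it. Each group (written as 2 h mutant, 0 h mutant, 2 h WT and 0 h WT) had 2 biological replicates and so 2 lists, which held 2049 and 2213 peaks in the 2 h mutant, 1447 and 1720 in the 0 h mutant, 1992 and 2074 in 2 h WT, and 1372 and 1466 in 0 h WT. flg22 is a peptide of bacterial flagellin that starts immune signalling, and it was given by exchanging the medium. No group had the medium exchanged without flg22, so flg22, elapsed time and handling cannot be told apart. The serum recognises WRKY proteins as a class, so a call in the mutant can come from any other WRKY protein. The list of 0 h WT replicate 1 lacked 136 of its region numbers, so an absent call there can be an absent row.

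Recognition of flg22 at the cell surface opens calcium channels within minutes. Calcium-dependent protein kinases join a kinase domain to a calmodulin-like domain with EF hands, so that calcium binding switches the kinase on, and calmodulin-like proteins carry EF hands without a kinase domain. CPK4, CPK5, CPK6 and CPK11 act together as positive regulators of flg22 responses, and CPK5 phosphorylates the NADPH oxidase RBOHD, which makes the oxidative burst. CPK28 restrains the same response by promoting turnover of the receptor-associated kinase BIK1. CPK10, CPK30 and CPK32 phosphorylate the nitrate regulator NLP7, and CPK10 also acts in stomatal and drought responses. CML37 takes part in defence against insect herbivores, and CML38 is induced by wounding and low oxygen.

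A gene was called bound in a group when both lists of that group held a peak for it. In the 2 h mutant 3 of the 10 genes were bound (CPK10, CPK30 and CML37), against 2 in the 0 h mutant (CPK10 and CML37). In WT the same 3 genes were bound at 2 h, against 2 at 0 h (CPK30 and CML37). Among 27444 nuclear protein-coding genes 3.83% were bound in the 2 h mutant, 3.15% in the 0 h mutant, 3.87% in 2 h WT and 2.83% in 0 h WT. CML37 was the 1 gene of the 10 called in all 8 lists, against 1.67% of protein-coding genes. At least 1 list held a peak for 12.4% of protein-coding genes.

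**Figure D1:**
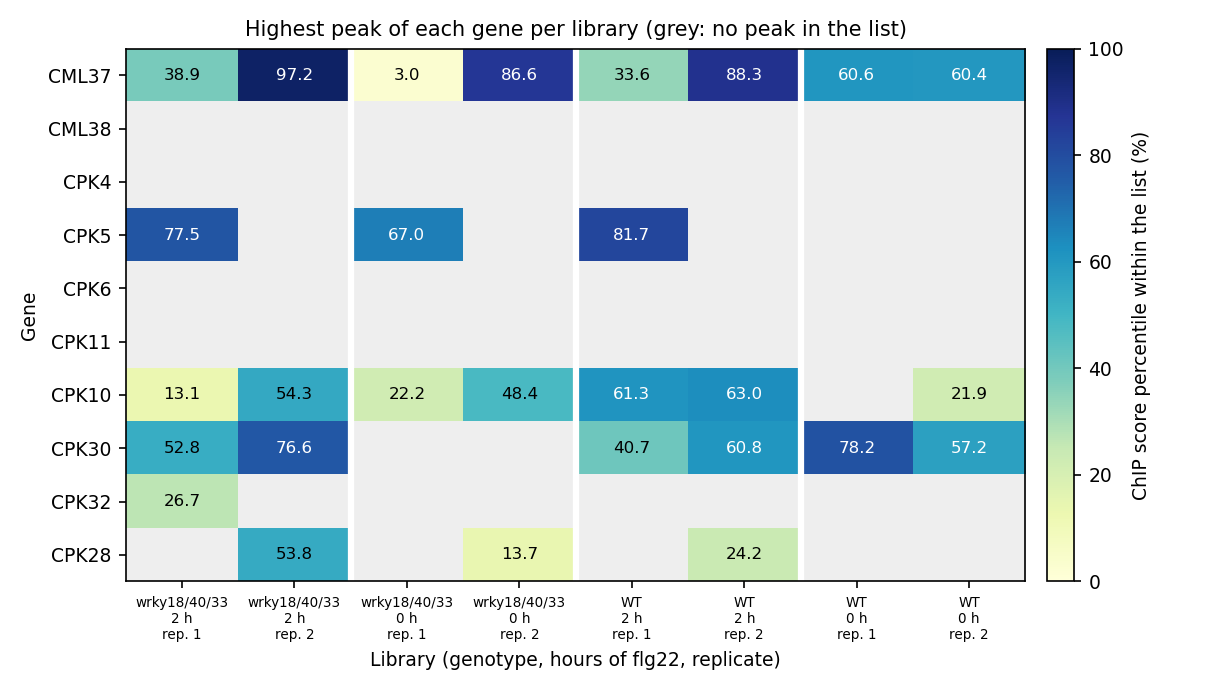
ChIP score percentile (colour and number, in % of the peaks of that list) of the highest peak of each of the 10 genes, in rows, in each of the 8 libraries, in columns from the 2 h mutant to 0 h WT; grey marks no peak. CML37 is filled in every column, CPK5 in replicate 1 columns alone, CPK28 in replicate 2 columns alone, and CPK4, CPK6, CPK11 and CML38 are grey throughout.

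Peak strength is given as a percentile, the percentage of peaks in the same list with a ChIP score no higher than that of the peak, so that 100 is the top peak. The score is the authors' own value for each peak and its scale was not given in the sources used here. Percentiles place a peak within its list; lists of different length give different ranks to the same peak, so a difference in percentile between groups shows no change in binding.

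Of the calmodulin-like genes, CML37 had 1 site, on chromosome 5 at 16943308 to 16944009 (TAIR10), annotated as promoter in all 8 lists. Its percentile was 38.9 and 97.2 in replicates 1 and 2 of the 2 h mutant, and 3.04 and 86.6 in the 0 h mutant. It was 33.6 and 88.3 in 2 h WT, and 60.6 and 60.4 in 0 h WT. Replicate 2 was the higher of the pair in 3 of the 4 groups, and the ranges of all groups overlapped. The means were 68.0 ± 41.2 in the 2 h mutant and 44.8 ± 59.1 in the 0 h mutant, and 61.0 ± 38.7 in 2 h WT and 60.5 ± 0.145 in 0 h WT (SD, n = 2 each), so the spread between replicates was larger than the differences between groups in all groups but 0 h WT. The strongest CML37 peak was the 64th of the 2213 in replicate 2 of the 2 h mutant, with a ChIP score of 26.6. The weakest, in replicate 1 of the 0 h mutant, had a score of 10.1, which was 0.0765 above the lowest score of that list. Ordered by mean percentile, CML37 took place 362 among the 483 genes called in all 8 lists, with a mean of 58.6 against a median of 71.5 for those genes.

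CML38 had no call, and neither did the genes on either side of it in the RefSeq gene order, AT1G76640 and AT1G76660. AT1G76640 is itself a calmodulin-like gene.

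Of the kinase genes, CPK30 was called in 6 lists, at 1 promoter site on chromosome 1 at 28082761 to 28083709 (TAIR10). Its percentile was 52.8 and 76.6 in the 2 h mutant, and neither list of the 0 h mutant held a peak there. It was 40.7 and 60.8 in 2 h WT, and 78.2 and 57.2 in 0 h WT. CPK30 therefore met the rule for a gain at 2 h in the mutant (both lists at 2 h, neither at 0 h), a rule met by 3.59% of the 3089 genes with a peak in at least 1 mutant list. It also met the rule for a call in WT alone at 0 h, met by 0.663% of the 2414 genes with a peak in at least 1 list at 0 h. No peak of any other gene overlapped the site in any list, so the absent calls were not peaks assigned elsewhere. In WT its mean percentile was 50.8 ± 14.2 at 2 h and 67.7 ± 14.8 at 0 h (SD, n = 2 each), a difference close to the spread between replicates. The rule for choosing the genes used these calls, and with 2 lists against 2 the smallest exact two-sided p would be 0.333, so no test is given.

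CPK30 was the 1 gene of the 10 that met any rule for a gain, a loss or a call in 1 genotype alone. None of the 10 genes was gained at 2 h in WT, where 7.85% of 2993 genes were, and none was lost in WT (2.17%) or in the mutant (0.55%). None was called in the mutant alone (1.63%) or in WT alone (1.54%) at 2 h, and none in the mutant alone at 0 h (1.49%). These rules need both lists of a group. Within same-numbered pairs of lists, the mean number gained in WT was 1.5, with CPK5 and CPK10 in replicate 1 and CPK28 in replicate 2. The same 3 genes made up the mean of 1.5 called in the mutant alone at 0 h, and CPK32 that of 0.5 called in the mutant alone at 2 h. In replicate 1 the pairs with 0 h WT rest on the list that lacked region numbers.

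CPK10 was called in 7 lists, with 9 peaks at 3 separate sites on chromosome 1 (TAIR10). Of the 3609 genes with a peak, 1.08% had 3 or more sites. The site nearest the gene, at 6525965 to 6526209, was called in replicate 1 of the 2 h mutant (percentile 13.1) and in replicate 1 of 2 h WT (61.3). The middle site, at 6526280 to 6526775, was called in replicate 2 of the 2 h mutant (54.3), in both lists of the 0 h mutant (22.2 and 48.4), in replicate 2 of 2 h WT (39.2) and in replicate 2 of 0 h WT (21.9). The far site, at 6526876 to 6527263 and annotated as intergenic, was called in replicate 2 of the 2 h mutant (19.1) and in replicate 2 of 2 h WT (63.0).

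At 2 h, then, both lists of each genotype held a CPK10 peak, but at different sites. Counted by site, CPK10 was bound in the 0 h mutant alone, and the number of bound sites was 2 in every group: CML37 and CPK30 in the 2 h mutant, CML37 and CPK10 in the 0 h mutant, and CML37 and CPK30 in both 2 h WT and 0 h WT. The share of all 3886 merged regions bound in each group was not computed, so these site counts have no background beside them. The highest percentiles of CPK10 averaged 33.7 ± 29.1 in the 2 h mutant, 35.3 ± 18.5 in the 0 h mutant and 62.1 ± 1.18 in 2 h WT (SD, n = 2 each), with 1 call in 0 h WT. The sites near and far from the gene were called in lists of 2 h alone, in both genotypes, the near site in replicate 1 alone and the far site in replicate 2 alone. The lists of 2 h were longer than those of 0 h in both genotypes, and the share of all sites with such a pattern was not computed. The gene next to CPK10, AT1G18900, had peaks of its own in 5 lists, at percentiles from 5.98 to 52.9.

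CPK5 had 1 promoter site, on chromosome 4 at 16801428 to 16802301 (TAIR10), called in 3 lists. Its percentile was 77.5 in replicate 1 of the 2 h mutant, 67.0 in replicate 1 of the 0 h mutant and 81.7 in replicate 1 of 2 h WT. The value in WT was the highest percentile of any kinase gene of the set, though percentiles of different lists are not on a common scale. By ef score, a second deposited score, the same peak had 4.90 and the 0 h mutant peak 4.65, both under 5. The 2 h mutant peak had 7.71, and CPK30 peaks had 4.18 to 12.5. No replicate 2 list held a CPK5 peak. Calls in 3 or 4 lists of replicate 1 and none of replicate 2 were found for 5.32% of the 3609 genes. The remaining replicate 1 list, 0 h WT, is the one that lacked region numbers. The other kinases of this redundant set, CPK4, CPK6 and CPK11, had no call. Of their neighbours in gene order, AT4G09560 beside CPK4 was called in both lists of 2 h WT, at percentiles of 6.22 and 12.1, and the genes beside CPK6 and CPK11 had no call.

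CPK28 had 1 site, on chromosome 5 at 26459404 to 26459650 (TAIR10), called in 3 lists, all of replicate 2. Its percentile was 53.8 in the 2 h mutant, 13.7 in the 0 h mutant and 24.2 in 2 h WT. No replicate 1 list held a peak there, and 8.4% of the 3609 genes had calls in 3 or 4 lists of replicate 2 and none of replicate 1. This was the 1 site of the set downstream of a transcription start site (TSS), at deposited distances of 89 to 117 bp, and its peak in the 0 h mutant was annotated to the transcript end of AT5G66211. CPK32 had 1 peak, in replicate 1 of the 2 h mutant, on chromosome 3 at 21300045 to 21300853 (TAIR10), at a deposited distance of -858 bp and a percentile of 26.7. The gene next to CPK32, AT3G57540, was called in replicate 2 of the 2 h mutant and of 2 h WT, at percentiles from 7.43 to 40.2.

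Of the 30 peaks, 27 (90%) were annotated as promoter, against 64.6% of all peaks. Both shares count a site once for each list that called it. The 30 peaks came from 8 sites, and the 1 CML37 site gave 8 of them. Another 2 were intergenic, both at the far CPK10 site, and 1 lay at a transcript end. The class and the assignment to a gene both depend on the position of a peak relative to annotated transcripts. The ChIP scores of the peaks ran from 10.1 to 26.6 at CML37, from 14.9 to 17.99 at CPK5, from 12.4 to 16.7 at CPK30, from 10.7 to 14.3 at CPK10 and from 10.6 to 13.3 at CPK28, and the CPK32 peak scored 11.5. The lowest score of any peak in the 8 lists was 9.98.

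**Figure D2:**
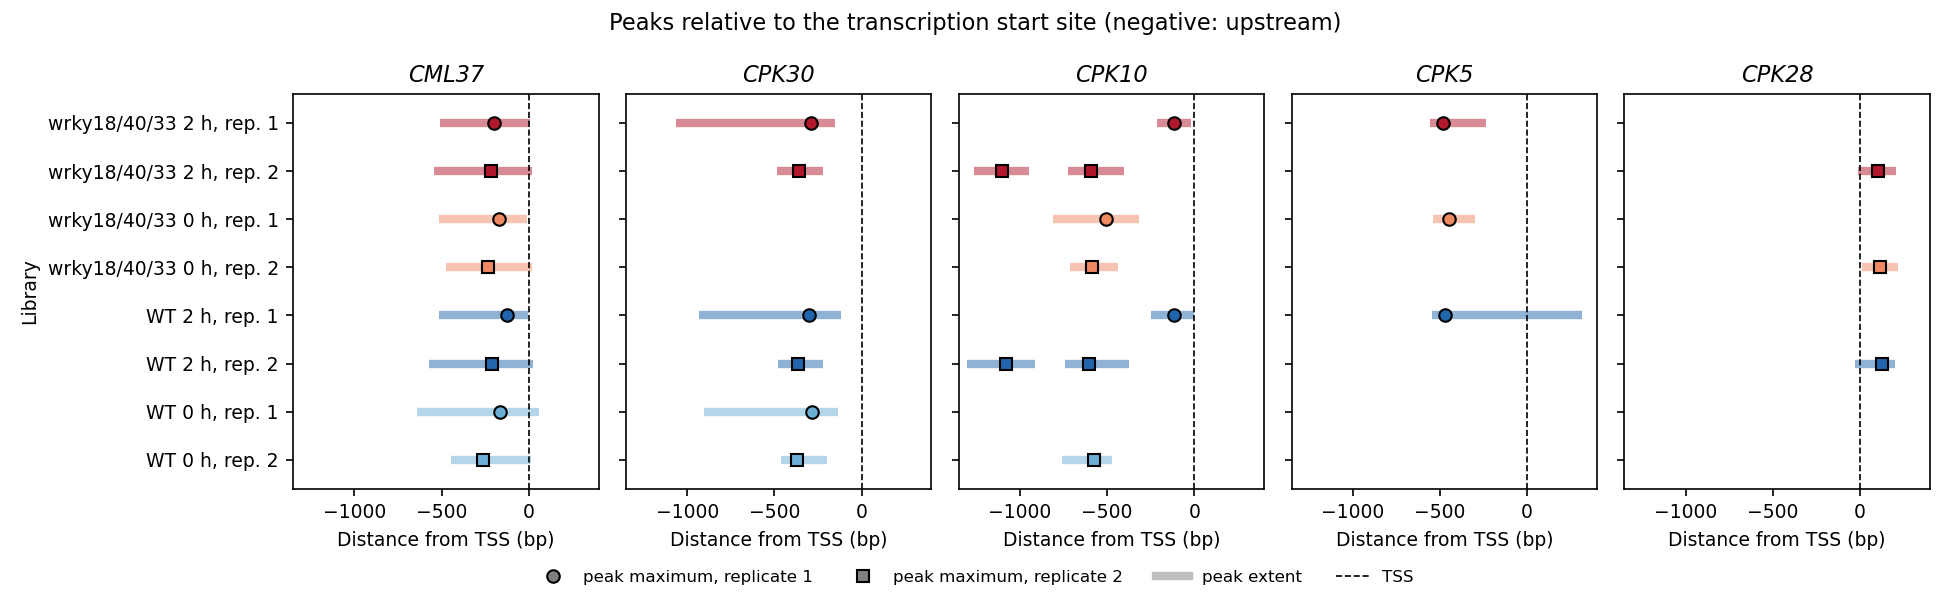
Peak extent (bars, in bp from the transcription start site, negative upstream) and position of the peak maximum (circles, replicate 1; squares, replicate 2) for 5 of the genes, with the 8 libraries in rows from the 2 h mutant to 0 h WT. Maxima at CML37 lie between -263 and -126 bp in all 8 rows, while the CPK10 maxima fall at 3 separate positions.

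The deposited distance to the TSS refers to the middle of a peak, as the same TSS followed from every peak of a gene (spread 0 bp over the peaks of each gene with several peaks). Distances of the peak maximum were therefore computed from that TSS. At CPK5 the deposited distances ran from -418 to -117 bp, while the 3 maxima lay within 32 bp, at -483 to -451 bp from the TSS. The longest of these peaks, 863 bp in replicate 1 of 2 h WT, had the maximum at -469 bp. At CPK30 the deposited distances ran from -610 to -331 bp and the maxima lay within 88 bp, at -373 to -285 bp. CML37 went the other way, with deposited distances from -292 to -215 bp and maxima from -263 to -126 bp, a span of 137 bp. The CPK28 maxima lay at 106 to 124 bp downstream of the TSS of transcript AT5G66210.4.

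Peaks at CPK30 had widths of 769 to 911 bp in the replicate 1 lists, with no overlap with the 260 to 266 bp of the replicate 2 lists. At CML37 the widths overlapped: they were 503 to 702 bp for replicate 1, while replicate 2 gave 460 to 593 bp. Over all peaks the median width was 525 to 564 bp in replicate 1 lists, against 354 to 385 bp for replicate 2.

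At CML37 and CPK30 the maxima of the 2 replicate numbers did not overlap. At CML37 the median maximum lay at -168.5 bp in replicate 1 and -226 bp in replicate 2, and at CPK30 at -292 and -362 bp. The replicate 2 maximum was farther upstream in all 8 comparisons within a group that CML37, CPK30 and the middle CPK10 site allowed, by 19 to 97 bp. Over all sites with 1 peak in each replicate of a group (837 to 1124 sites), the maxima differed by a median of 61 to 76 bp, and the replicate 2 maximum was the farther upstream at 41.8% to 45.2% of sites whose strand could be read. The distances at the 3 genes were thus of a usual size. The 8 comparisons share sites and replicates and are not independent.

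CML37 had the widest range of percentiles over the 8 lists (94.1). The 3 genes outside the set with the most similar percentiles, by the mean absolute difference over the 8 lists with 0 where there was no call, were AT3G26500 (PIRL2, a leucine-rich repeat protein; 4.86), AT5G65920 (a U-box protein; 10.0) and AT3G51360 (an aspartyl protease family protein; 10.4). AT5G65920 was called in 8 lists and the other two in 7, without replicate 1 of the 0 h mutant, the list in which CML37 had its weakest call.

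The wider families were read in the same way, as counts beside the shares of all genes given above. Of the other 26 CPK genes, 7 had a peak in at least 1 list; 2 were bound in the 2 h mutant, none in the 0 h mutant, 1 in 2 h WT and none in 0 h WT. CPK9 (AT3G20410) had a promoter site on chromosome 3 at 7115483 to 7116220 (TAIR10). Its percentile was 63.9 and 62.6 in the 2 h mutant, with 1 call in the 0 h mutant (24.3), and 94.1 and 84.6 in 2 h WT, with 1 call in 0 h WT (45.5). CPK31 (AT4G04695) was called in both lists of the 2 h mutant (18.4 and 54.3) and in replicate 2 of each other group. No CPK gene outside the 10 was gained or lost in either genotype, or called in 1 genotype alone.

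Of the 55 calmodulin and calmodulin-like genes other than CML37 and CML38, 13 had a peak in at least 1 list; 4 were bound in the 2 h mutant, 3 in the 0 h mutant, 4 in 2 h WT and 3 in 0 h WT. AT3G01830, which the lists describe as a putative calcium-binding protein, was called in all 8 lists at percentiles from 49.0 to 98.0. Its site lay on chromosome 3 at 295526 to 296150 (TAIR10), at deposited distances of -267 to -207 bp. AT3G29000, described in the same way, was also called in all 8 lists (4.16 to 72.6), and the calmodulin gene CAM3 (AT3G56800) in 7. AT2G41090, calmodulin-like protein 10 in the lists, was bound in 2 h WT alone, at 74.6 in replicate 1 and 95.4 in replicate 2. It was also called in replicate 2 of each other group, at 84.1 in the 2 h mutant, 54.9 in the 0 h mutant and 33.1 in 0 h WT.

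AT5G39670, another putative calcium-binding protein, was called in all 4 lists at 2 h and in none at 0 h, a pattern of 1.16% of the 3609 genes. Its percentile was 73.4 and 29.9 in the 2 h mutant, and 54.8 and 16.6 in 2 h WT. It had 2 sites on chromosome 5 (TAIR10). The site at 15881403 to 15882065, annotated as a transcript end and -1518 to -1438 bp from the AT5G39670 TSS, was called in both lists of WT and 1 of the mutant. The site at 15882981 to 15883302, at -38 to -34 bp, was called in 1 list of each genotype.

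**Figure D3:**
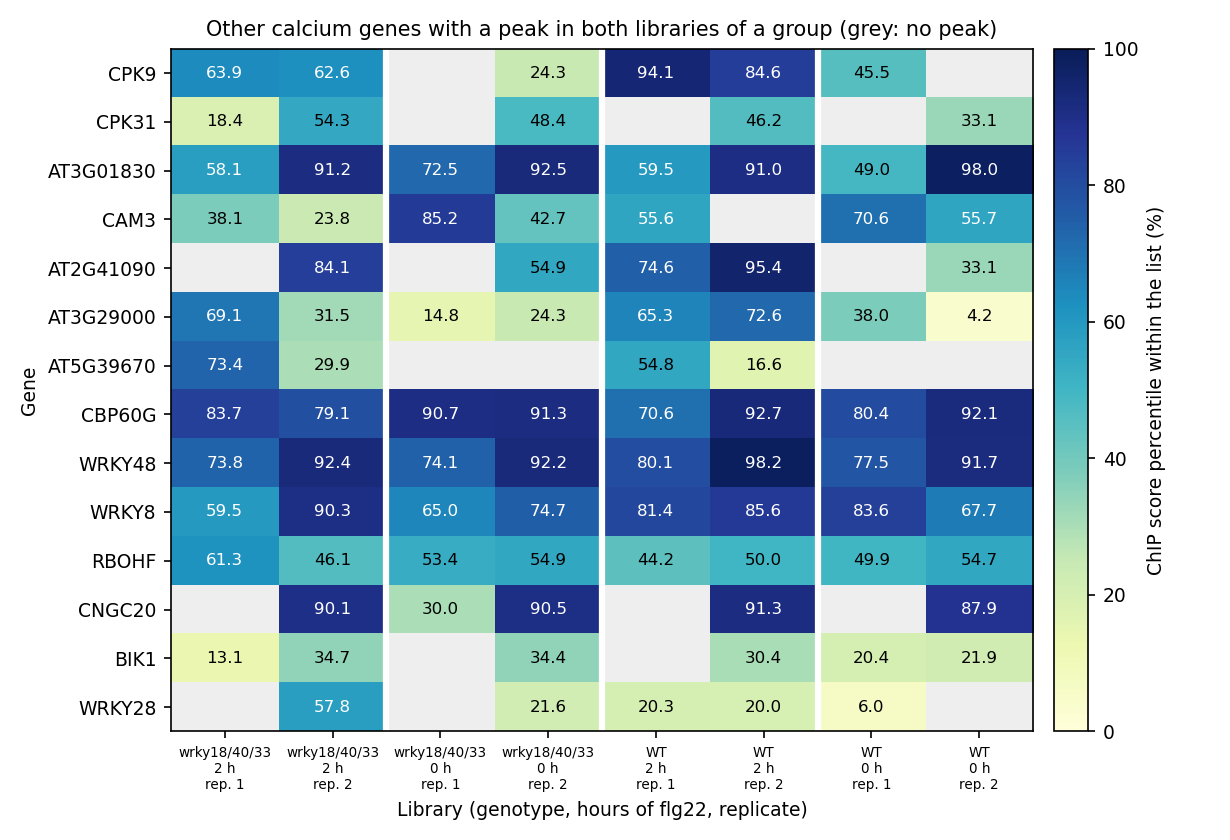
ChIP score percentile (colour and number, in % of the peaks of that list) of the highest peak of 14 other calcium signalling genes bound in at least 1 group, in rows, in each of the 8 libraries, in columns from the 2 h mutant to 0 h WT; grey marks no peak. AT5G39670 is filled in the 4 columns of 2 h alone, and CBP60G, WRKY48, WRKY8, RBOHF, AT3G01830 and AT3G29000 in every column.

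Among 16 genes whose products act with the kinases and calmodulins, 10 had a peak in at least 1 list and 5 were bound in each of the 4 groups, with none gained or lost. WRKY8 (AT5G46350) and WRKY48 (AT5G49520), transcription factors phosphorylated by the CPK5 group of kinases, were called in all 8 lists, WRKY8 at percentiles of 59.5 to 90.3 and WRKY48 at 73.8 to 98.2. The WRKY8 site was annotated as promoter, at -723 to -423 bp. That of WRKY48 was annotated as intergenic and lay far from the gene, at -4909 to -4848 bp. CBP60G (AT5G26920), a calmodulin-binding regulator of salicylic acid synthesis, was called in all 8 (70.6 to 92.7), at -965 to -895 bp. RBOHF (AT1G64060), an NADPH oxidase, was called in all 8 (44.2 to 61.3), at -2894 to -2774 bp and annotated as a transcript end. These 4 genes made up the bound set with BIK1 in the 2 h mutant and in 0 h WT, with CNGC20 in the 0 h mutant and with WRKY28 in 2 h WT. WRKY28 (AT4G18170), another WRKY substrate of these kinases, was called in 5 lists (5.98 to 57.8) at 3 sites. BIK1 (AT2G39660), whose turnover CPK28 promotes, was called in 6 lists at percentiles of 13.1 to 34.7, and RBOHD (AT5G47910), the target of CPK5, in 2, both of replicate 2. CNGC20 (AT3G17700), a cyclic nucleotide-gated channel, was called in all 4 lists of replicate 2 at percentiles of 87.9 to 91.3, and in 1 list of replicate 1, at 30.0.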

How the data were processed

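Per the labels' protocols, precipitated DNA was amplified linearly ahead of library preparation, and each sample gave 10000000 to 20000000 single-end reads of 100 bp. Tools named in the submitters' processing notes were HOMER, SAMtools 0.1.18, Bowtie2 2.0.5, cutadapt 1.2.1 and FastQC 0.11.2, with TAIR10 as build. The program that called peaks, and its settings, were not given in the sources used here. The authors deposited 1 peak list per library, with 3 scores per peak (ChIP score, ef score and region log q score) and a nearest promoter; 8 input libraries served as controls for peak calling, per the labels, and were not analysed here. The deposited lists stop at a ChIP score between 9.98 and 10.0, so weaker sites do not appear. The depth of any single list is unknown, and reads were not used here. The authors' DistanceTSS, a deposited value in bp, was combined with peak midpoints to place each maximum.

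Peaks sharing at least 1 bp were merged with Python 3.11.15 and pandas 2.3.3; the rules were tested on simulated lists. RefSeq's gene table (TAIR10.1) held all 10 genes and 3564 of the 3609 assigned ones, and served for names, gene order and the 27444 protein-coding genes. The genes and lists were chosen with earlier results of these data known. Named beside the 10 genes were at most 8 genes per list, bound in at least 1 group, and the 3 most alike to the gene of widest range. Outside that rule, RBOHD, TCH3, CAM9, AT3G25600 and some of the genes next to the 10 were named after their values were seen. Replicate numbers mark a shared biological replicate per the series' design text; the replicate 1 minus replicate 2 calls of a gene were correlated for each pair of groups (r of 0.315 to 0.46 over genes). W-box elements were not searched, since no genome sequence was used here.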

Additional observations from a re-analysis of the deposited data

Results flagged for a closer look

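By the highest peak per gene, with 0 for no call, CPK30 and CPK10 differed in opposite directions between genotypes at the 2 times. This held in both replicates and was not tested. For CPK10 it did not hold at the middle site in replicate 2, as given below. For CPK30 the percentile of the mutant minus that of WT was 12.0 in replicate 1 and 15.8 in replicate 2 at 2 h, a mean of 13.92. At 0 h neither mutant list held a CPK30 call against both of WT. Without replicate 2 of the 2 h mutant the mean difference at 2 h was 1.98, and without its replicate 1 it was 25.9. Without replicate 1 of 2 h WT it was 3.85, and without replicate 2 of 2 h WT it was 24.0.

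For CPK10 the difference was -48.2 in replicate 1 and -8.65 in replicate 2 at 2 h, a mean of -28.41, which was -7.82 without replicate 1 of the 2 h mutant and -49.0 without its replicate 2. At 0 h it was 22.2 in replicate 1 and 26.5 in replicate 2, a mean that was 37.4 without replicate 1 of the 0 h mutant, 11.2 without its replicate 2 and 13.4 without replicate 1 of 0 h WT. That last list, with no CPK10 call, is the one that lacked region numbers. The CPK10 peaks behind these values lay at different sites, and percentiles of lists of different length are not on a common scale. At 2 h the replicate 1 values came from the near site in both genotypes. In replicate 2 the mutant value came from the middle site (54.3) and the WT value from the far site (63.0). At the middle site in replicate 2 the mutant was above WT at 2 h (54.3 against 39.2) and also at 0 h (48.4 against 21.9). Leaving out lists was chosen after seeing these differences.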

How the results depend on the processing

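The CPK30 gain in the mutant and its call in WT alone at 0 h were met under each of the 5 filters on peaks and distances, by site in place of gene (chosen after seeing the data), and without any 1 list. Only the filters on peak scores could have changed these 2 results. CPK30 had 1 site, which lay inside both limits on distance, and leaving out 1 list only relaxes the rule. Of 97 values recomputed with all lists, 83 stayed within 1.5 times of the reported count (percentiles: within 1 SD). This share does not measure stability, because many of the 97 values could not change. Under both limits on distance, each list kept a peak for every one of the 10 genes it had called. CML37 and CPK30 had 1 peak in each list that called them, so their means over all peaks equalled the reported percentiles. Counts of 0 that stayed 0 were also among the 83. With peaks at or above the median score, 1 gene was bound in the 2 h mutant (CPK30), 0 in the 0 h mutant and 1 in 2 h WT (CPK10); 0 were called in all 8 lists, and 1 was gained in WT (CPK10). With ef scores of 5 or more, 0 were bound in the 0 h mutant, 1 in 2 h WT (CML37) and 0 in all 8. With the top 1372 peaks of each list, 1 was bound in the 0 h mutant (CPK10) and 0 in all 8. Taking the mean over all its peaks, CPK10 in 2 h WT averaged 56.2. Counted within same-numbered pairs, the replicate block, the mean number gained in WT was 1.5, that in the mutant alone 0.5 at 2 h and 1.5 at 0 h. The filters shorten the lists; the cause was not tested further.

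Leaving out each list in turn, so that the remaining list of a group decides, 4 to 5 genes were called in the 2 h mutant, 3 to 3 in the 0 h mutant, 4 to 4 in 2 h WT and 2 to 3 in 0 h WT; 1 to 2 in all lists (2 without replicate 1 of 0 h WT, CPK10 added); 1 to 2 gained in the mutant (2 without replicate 2 at 2 h, CPK32 added); 0 to 1 gained in WT; and 0 to 1 in the mutant alone at 2 h and at 0 h. The single gene gained in WT was CPK28, CPK5 or CPK10, without replicate 1 at 2 h, replicate 2 at 2 h and replicate 2 at 0 h in turn. In the mutant alone it was CPK32 at 2 h without replicate 2 of the 2 h mutant, and at 0 h CPK28, CPK5 or CPK10, without replicate 1 of the 0 h mutant, its replicate 2 and replicate 2 of 0 h WT in turn. The depth of each list is unknown, so an absent call is not an absent site.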

Other observations

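Calls tied to 1 replicate number also occurred among the other calcium genes, as they did over all genes. Of the 3609 genes with a peak, 8.4% had calls in 3 or 4 lists of replicate 2 alone. For replicate 1 alone the share was 5.32%. The 3 genes given here were picked after their values were seen, so they show no trait of calcium genes. TCH3 (AT2G41100, a touch-induced calmodulin-like gene) and CAM9 (AT3G51920) were called in all 4 lists of replicate 2 and in none of replicate 1. AT3G25600, a putative calcium-binding protein, was called in 3 lists of replicate 1 and none of replicate 2. TCH3 lies next to AT2G41090 in gene order, and their calls were separate sites, with 0 shared regions.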
